A study of Mus musculus with 12 samples.

Results

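Minor introns are a small class of introns that are removed by their own spliceosome, which uses the U11, U12, U4atac and U6atac small nuclear RNAs beside the shared U5. U11 RNA, made from the gene Rnu11 in the mouse, pairs with the donor site at the 5′ end of such an intron, and U12 pairs with the branch point near its 3′ end. The genes that carry a minor intron usually carry a single one among many ordinary introns, and many of them serve RNA processing, membrane traffic, the cytoskeleton and the cell cycle. Here 31 genes commonly listed as holding a minor intron were followed in the mouse embryonic cortex after loss of U11. They were picked by name, leaving out the ion channel, mitogen-activated kinase and E2F genes of that class, and all 31 were found among the 54735 gene symbols of the deposited tables. All 31 also reached a mean of at least 1 TPM over the libraries and stood among the 11764 genes tested. TPM is an abundance corrected for transcript length and scaled to an equal sum in every library, so levels of different genes can be set side by side.

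RNA was sequenced from the dorsal telencephalon, the wall of the forebrain that forms the cortex, of 12 mouse embryos of strain C57/Bl6 at stage E13.5, with 4 embryos of each of 3 genotypes. The control embryos were Rnu11wt/flx::Trp53wt/wt::Emx1-Cre+, the cKO embryos were Rnu11flx/flx::Trp53wt/wt::Emx1-Cre+, and the dKO embryos were Rnu11flx/flx::Trp53flx/flx::Emx1-Cre+. Every embryo carried the Emx1-Cre recombinase, which acts in the progenitors of the dorsal telencephalon and their descendants, so the controls had 1 Rnu11 copy open to deletion. Vessel cells, microglia and neurons that enter from the ventral forebrain lie outside that lineage in every genotype. The dKO differed from the control in both Rnu11 and Trp53, the gene of the p53 protein, and no group used here lost Trp53 alone. Nothing in the labels says whether the embryos came from separate litters, so the p-values measure the spread between these embryos.

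Rnu11 stood at 640.5 ± 86.4 TPM (SD, n = 4) in the controls, 144 ± 20.4 TPM in the cKO and 164 ± 26.3 TPM in the dKO, which is 22.6% and 25.6% of the control. Trp53 stood at 3.82 ± 1.73, 4.24 ± 0.404 and 1.22 ± 0.252 TPM. The dorsal telencephalon markers Emx1, Emx2, Pax6, Eomes and Tbr1 were present in all 12 libraries. The number of reads behind each value is unknown, because TPM does not keep it. Protein-coding genes made up 14.6% to 16.3% of the TPM in the control libraries, 16.1% to 19.99% in the cKO and 14.4% to 15.5% in the dKO, and embryo 4 of the cKO had the highest share. Since total RNA was sequenced, a gene's TPM moves with this share. The median log2 difference over all genes tested was 0.25 between the cKO and the controls and -0.26 between the dKO and the cKO. With libraries rescaled to an equal protein-coding sum the medians were 0.12 and -0.08, and the cause of these shifts was not tested. Each comparison is therefore given on the values as deposited and after centring, in which each library was shifted by its median log2 difference from the mean library. In RNA from whole tissue, fewer cells of a type and less RNA per cell cannot be told apart.

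The introns themselves could be read in part. The GENCODE release 21 annotation of GRCm38, the mm10 build, gives 473 introns of at least 70 bases in protein-coding transcripts of the 31 genes, and for 86 of them, in 24 genes, another annotated transcript covers the first 20 bases. The donor letters ATATCC or GTATCC, which are characteristic of minor introns, opened 14 of these 86 introns (16.3%), in 12 of the 24 genes, against 252 of 35460 introns of other genes (0.711%). With the 8 letters ATATCCTT or GTATCCTT the counts were 10 of 86 (11.6%) and 155 of 35460 (0.437%). The branch point letters CCTTAAC occurred in the last 40 bases of 7 of 76 introns read there (9.21%), in 5 genes, against 119 of 30306 (0.393%). Both features stood together in 6 of 41 introns of the 31 genes and in 13 of 16855 introns of other genes (0.0771%). The genes had been listed for their minor introns, so these shares describe how the list relates to the annotation. The matching donors are shown here because the donor site is where U11 pairs. Each line gives the first 20 bases of the intron, 5′ to 3′ on the gene's own strand, with the matching letters in capitals.
Ercc5, chr1:44148151-44156936 (plus): GTATCCTTcaaggcggctcc
Ubl5, chr9:20645660-20646615 (plus): GTATCCTTttcctgaagttc
Ubl5, chr9:20645260-20645405 (plus): GTATCCaccgaggggtgact
Derl2, chr11:71014644-71015726 (minus): GTATCCTTtattaaatagag
Derl2, chr11:71013639-71014549 (minus): GTATCCTTcaacaaatagca
Tmem107, chr11:69071475-69072422 (plus): GTATCCTTtttatttggcca
Rabl2, chr15:89586994-89588187 (minus): GTATCCTTaaagacctgcag
Vps35, chr8:85287820-85289705 (minus): GTATCCTTtgactgttgaag
Vps16, chr2:130440580-130440706 (plus): GTATCCctatgtatggcatg
Exosc2, chr2:31675905-31676667 (plus): GTATCCtgcacctcattctc
Snrpe, chr1:133609745-133610163 (minus): GTATCCtacgctgcgtgaac
Cul4a, chr8:13115574-13121676 (plus): ATATCCTTtctttgttttgc
Tmem87b, chr2:128839220-128841234 (plus): ATATCCTTtaccatgtcctt
Trappc2, chrX:166449933-166450628 (plus): ATATCCTTaccttatggtag

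Cul4a, Tmem87b and Trappc2 thus had an intron that opened with AT, and the other matching donors opened with GT. The 3′ ends are shown for the 6 introns that also held the branch point letters, which are in capitals. Their last A lay 10 to 15 bases from the intron's end, and the introns of Tmem87b and Trappc2 that opened with AT closed with AC.
Ubl5, second intron listed, last 40 bases: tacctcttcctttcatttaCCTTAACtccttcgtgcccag
Ubl5, first intron listed, last 40 bases: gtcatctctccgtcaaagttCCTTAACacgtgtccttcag
Vps16, last 40 bases: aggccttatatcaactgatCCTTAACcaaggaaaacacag
Derl2, first intron listed, last 40 bases: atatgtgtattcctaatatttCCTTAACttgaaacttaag
Tmem87b, last 40 bases: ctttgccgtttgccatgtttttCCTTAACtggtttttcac
Trappc2, last 40 bases: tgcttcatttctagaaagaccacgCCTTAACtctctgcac

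In 12 further genes donors were read and none matched, namely Exosc1, Srpk1, Thoc2, Xpo4, Hps1, Tmem87a, Dram2, Actr10, Diaph3, Ccdc28b, Tapt1 and Stk11. For Nop2, Ctnnbl1, Zdhhc8, Rnf121, Diaph1, Maea and Wdr92 no donor could be read. Introns that were not read were not checked, so the label rests on the general listing for 19 of the 31.

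All 31 genes were expressed in every embryo, the lowest single value being 0.802 TPM for Zdhhc8 in dKO embryo 4. The control means ran from 1.67 TPM for Hps1, a subunit of a complex that builds lysosome-related organelles, to 151 TPM for Snrpe, a protein of the Sm ring at the core of spliceosomal RNA-protein particles, a 90.4-fold range with a median of 6.85 TPM. Below 5 TPM stood 12 genes and between 5 and 20 TPM stood 14. The other 5 were Snrpe, the splicing modifier Ubl5, the splicing-factor kinase Srpk1, the retromer subunit Vps35 and the mRNA export factor Thoc2. The plot of levels by embryo shows that the 3 genotypes lay close together for most genes relative to the span between genes. The summed TPM of the 31 genes was 415 to 463 in the controls, 413 to 530 in the cKO and 354 to 407 in the dKO, so every dKO library lay under every other library.

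**Figure D1:**
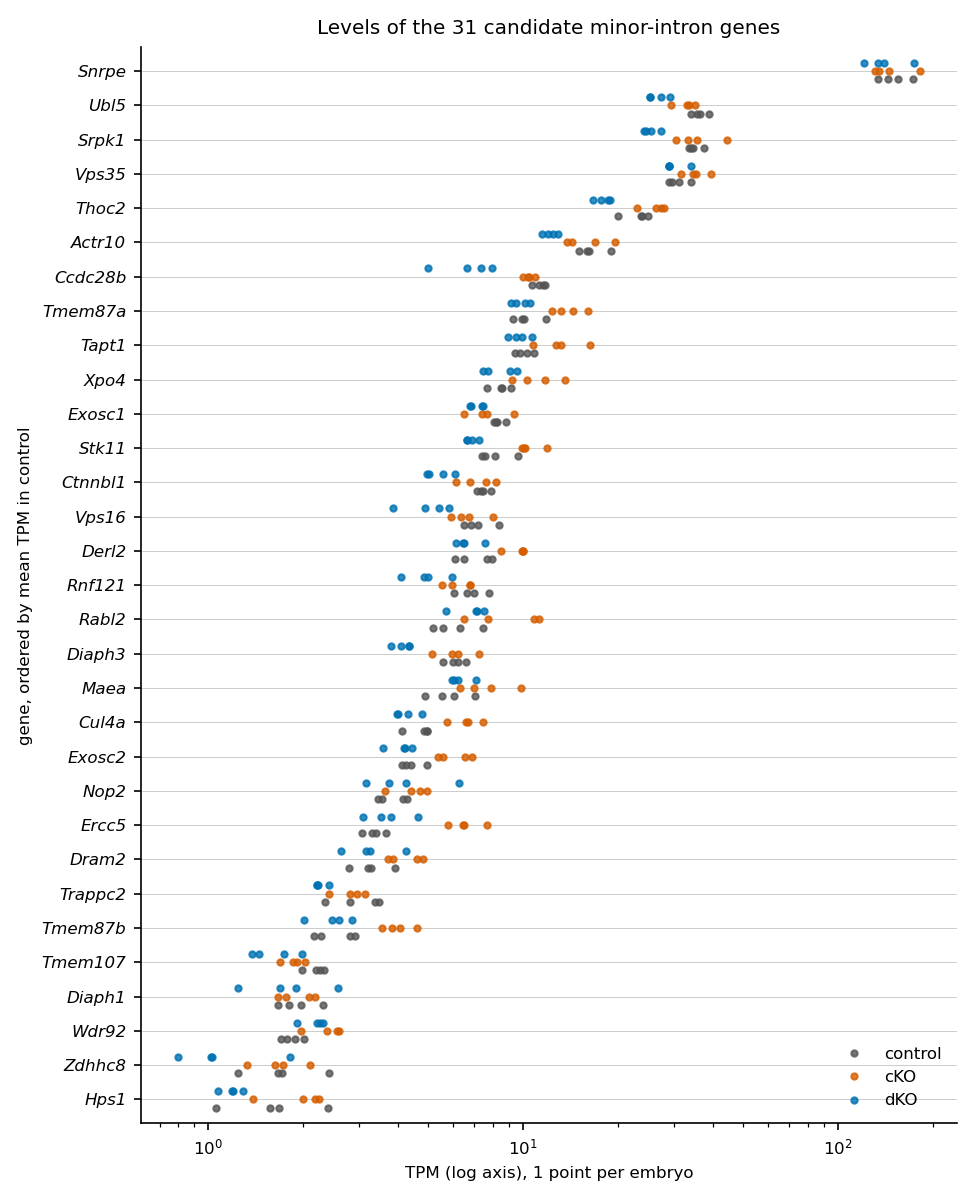
TPM on a log axis for each of the 31 genes, 1 point per embryo and 1 colour per genotype, with genes ordered by their control mean. Snrpe is highest and Hps1 and Zdhhc8 are lowest, and for Ccdc28b, Diaph3 and Srpk1 the 4 dKO points lie to the left of both other genotypes.

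Averaged over the 31 genes, expression was lower in the dKO than in the control under both scalings, whereas the cKO stood above the control as deposited and below it after centring. The mean of log2(TPM + 1) over the 31 genes was 3.06 ± 0.0388 in the controls, 3.22 ± 0.116 in the cKO and 2.88 ± 0.0201 in the dKO (SD, n = 4 each). Single embryos stood at 3.10, 3.02, 3.09 and 3.04 in the controls, 3.09, 3.25, 3.19 and 3.37 in the cKO and 2.89, 2.90, 2.87 and 2.86 in the dKO. The dKO embryos lay below all others, and the control and cKO ranges overlapped through cKO embryo 1. After centring the means were 3.14 ± 0.0356, 3.06 ± 0.0417 and 2.98 ± 0.0277, with controls between 3.11 and 3.18, cKO between 3.01 and 3.11 and dKO between 2.95 and 3.02. The dKO and control embryos were again apart, and the cKO embryos overlapped both. The difference from control was thus 0.16 as deposited and -0.09 after centring for the cKO, and -0.18 and -0.16 for the dKO. No test was made on this mean because the genes were listed with results of these data known.

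**Figure D2:**
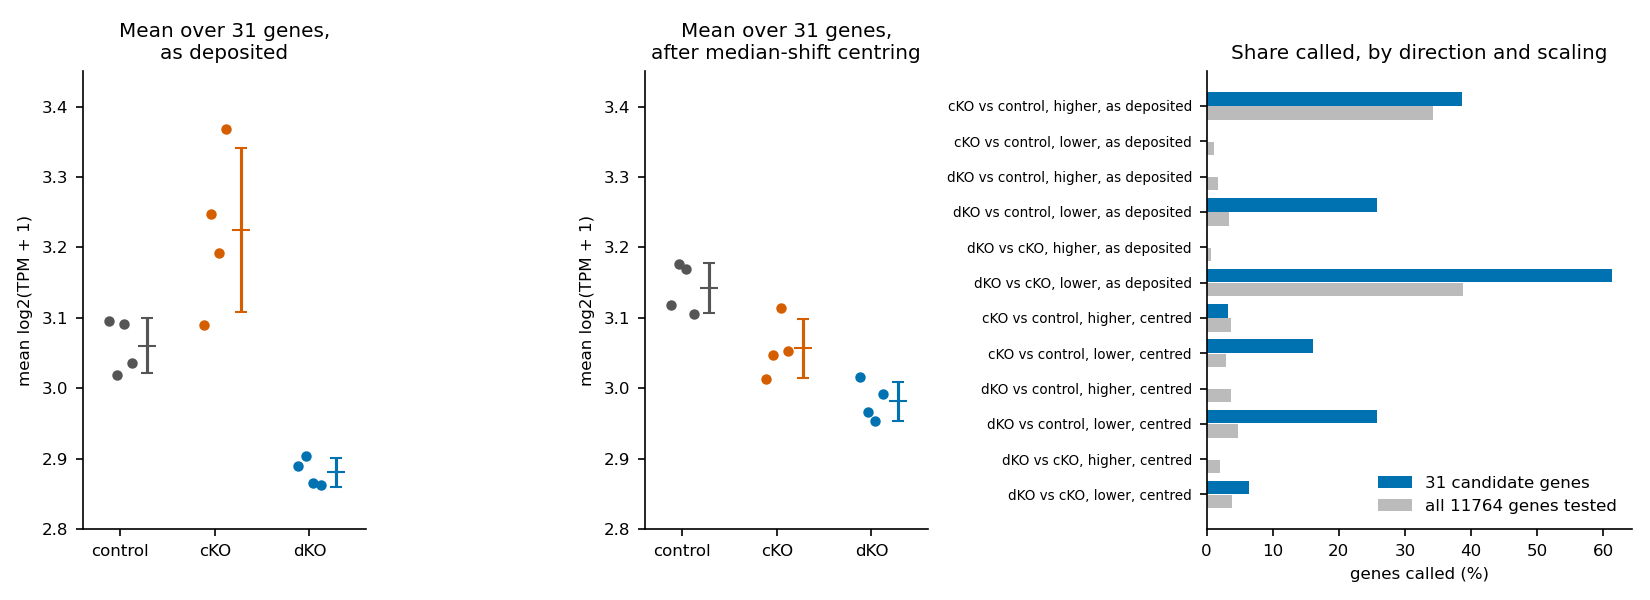
Left and centre: mean log2(TPM + 1) over the 31 genes for each embryo, as deposited and after centring, with the group mean and SD beside the points. Right: percentage of the 31 genes and of all 11764 genes tested that were called in each direction and scaling. The 4 dKO points lie below the 4 control points in both panels, and 25.8% of the 31 genes were called lower in the dKO than in the control under each scaling.

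In the dKO, without Rnu11 and Trp53, 8 of the 31 genes were lower than in the control and none was called higher. These were the RNA processing genes Ubl5, Ctnnbl1, Srpk1 and Thoc2, the traffic genes Vps16 and Rnf121, the formin Diaph3 and the cilium-linked Ccdc28b (limma on log2(TPM + 1), Benjamini-Hochberg adjusted over all genes tested, called under 0.05). That is 25.8% of the 31, beside 3.4% of all genes tested called lower and 1.79% called higher. After centring 8 were again lower and 0 higher, beside 4.69% and 3.74% of all genes. Of these, 7 were called under both scalings, and Actr10 took the place of Thoc2 after centring. No gene of the 31 was higher even at an unadjusted limma p under 0.05, under either scaling, while 14 were lower at that level under each. Of all 11764 genes tested, 2368 were at that level in either direction as deposited and 2878 after centring. The log2 difference from control was negative for 25 of the 31 as deposited and 24 after centring, with medians of -0.12 and -0.10, where the medians over all genes were -0.01 and 0.01.

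Ccdc28b, a coiled-coil protein linked to cilium formation and Bardet-Biedl syndrome, showed the largest fall of the 31 genes. Its level was 11.5, 11.2, 11.7 and 10.7 TPM in the 4 controls, 10.4, 9.95, 10.3 and 10.9 in the cKO and 4.97, 6.63, 7.32 and 7.97 in the dKO. All dKO embryos lay below all cKO and control embryos, and the dKO mean was 59.6% of the control mean. The log2 difference of dKO from control was -0.68 (SE 0.109, adjusted p = 0.00330) as deposited and -0.67 (SE 0.110, adjusted p = 0.00375) after centring by limma. Of the 50-base stretches of its longest coding transcript, 16.6% also occur in Tmem234, an overlapping gene on the opposite strand that stood at 12.9 TPM on average, and whether the authors' counting used strand is not given in the sources used here.

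Ubl5, a ubiquitin-like protein that binds spliceosome components without being attached to targets, carried donor matches in 2 introns, shown above. Its TPM was 38.8, 36.3, 34.1 and 35.7 in the controls, 29.4, 33.5, 35.2 and 33.2 in the cKO and 25.2, 25.2, 27.4 and 29.3 in the dKO. The dKO embryos lay below every embryo of both other groups, and the cKO embryos overlapped the controls. Its dKO difference from control was -0.42 (SE 0.0842, adjusted p = 0.0129) as deposited and -0.40 (SE 0.0851, adjusted p = 0.0140) after centring by limma, and the dKO mean was 73.9% of the control mean. Ubl5 shares 67.9% of the 50-base stretches of its longest annotated coding transcript with Fbxl12, a gene on the opposite strand whose mean was 2.49 TPM.

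Ctnnbl1, a protein of the complex that activates the spliceosome, stood at 7.92, 7.10, 7.43 and 7.34 TPM in the controls, 6.10, 7.64, 6.76 and 8.21 in the cKO and 5.02, 4.93, 5.56 and 6.08 in the dKO. Srpk1, the kinase that phosphorylates serine- and arginine-rich splicing factors, stood at 34.5, 33.98, 37.6 and 33.6 TPM in the controls, 33.4, 35.7, 30.6 and 44.3 in the cKO and 24.2, 24.6, 27.3 and 25.5 in the dKO. For both genes the dKO embryos lay under all 8 others. Their dKO means were 72.5% and 72.7% of control, and the limma differences were -0.40 (SE 0.0923, adjusted p = 0.0251) for Ctnnbl1 and -0.44 (SE 0.105, adjusted p = 0.0294) for Srpk1 as deposited. After centring they were -0.38 (SE 0.0715, adjusted p = 0.00735) and -0.43 (SE 0.0766, adjusted p = 0.00612). Thoc2, the scaffold of the THO complex that couples transcription to mRNA export, stood at 19.99, 24.9, 23.8 and 23.6 TPM in the controls, 22.98, 27.3, 26.3 and 27.9 in the cKO and 18.9, 16.7, 18.6 and 17.7 in the dKO. Its groups also stood apart from the dKO, but its adjusted p was just under the threshold as deposited (limma, log2 difference -0.34 (SE 0.0908, adjusted p = 0.0499)) and just over it after centring (-0.32, adjusted p = 0.0537).

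Diaph3, a formin that nucleates unbranched actin filaments and serves cell division, stood at 5.97, 5.57, 6.19 and 6.58 TPM in the controls, 5.12, 6.20, 5.93 and 7.25 in the cKO and 4.34, 4.08, 4.33 and 3.81 in the dKO. The 4 dKO embryos were the lowest of the 12, at 68.2% of the control mean, with a limma difference of -0.46 (SE 0.0913, adjusted p = 0.0129) as deposited and -0.44 (SE 0.0654, adjusted p = 0.00214) after centring. Its paralog Diaph1 stood at 1.94 ± 0.277 TPM in the controls and 1.86 ± 0.560 TPM in the dKO (SD, n = 4), with overlapping embryos and no call. The third formin of the family, Diaph2, is not among the 31. It was also called lower in the dKO, at 1.41 ± 0.200 TPM in the controls and 0.779 ± 0.0957 TPM in the dKO (limma, log2 difference -0.43, adjusted p = 0.0271 as deposited and 0.0326 after centring).

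Vps16, a core subunit of the HOPS and CORVET complexes that tether endosomes and lysosomes, stood at 8.40, 6.84, 6.49 and 7.17 TPM in the controls, 6.74, 5.88, 6.37 and 8.03 in the cKO and 5.79, 4.89, 3.87 and 5.40 in the dKO. Rnf121, a membrane-bound ubiquitin ligase of the endoplasmic reticulum and Golgi, stood at 7.81, 6.96, 6.61 and 6.01 TPM in the controls, 5.52, 5.94, 6.77 and 6.75 in the cKO and 4.97, 5.93, 4.08 and 4.84 in the dKO. In both genes the dKO embryos lay below all controls, while the cKO embryos overlapped the controls. The limma differences as deposited were -0.46 (SE 0.119, adjusted p = 0.0432) and -0.40 (SE 0.106, adjusted p = 0.0492), and after centring -0.45 (SE 0.112, adjusted p = 0.0315) and -0.38 (SE 0.101, adjusted p = 0.0384). Actr10, an actin-related subunit at the pointed end of the dynactin complex, stood at 15.96, 16.1, 18.98 and 14.98 TPM in the controls, 13.8, 19.6, 14.3 and 16.96 in the cKO and 11.4, 12.4, 12 and 12.9 in the dKO. The dKO embryos were again the lowest 4, and the difference was -0.41 with an adjusted p of 0.0545 as deposited and -0.39 (SE 0.0952, adjusted p = 0.0293) after centring by limma.

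The calls of Ccdc28b, Diaph3 and Ubl5 were made under both scalings in each of the 12 fits that left out 1 embryo, and after centring those of Ctnnbl1 and Srpk1 were too. Others were lost in many of these fits. As deposited, Rnf121 was called in 1 of the 12, Vps16 in 2, Thoc2 in 3, Srpk1 in 5 and Ctnnbl1 in 6. After centring, Rnf121 was called in 3 of the 12, and Vps16 and Actr10 in 7 each. The deposited count of 8 was 3 to 5 without any 1 control embryo, any 1 dKO embryo or cKO embryo 3. After centring the count of 8 was 5 without control embryo 2 or without dKO embryo 3.

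**Figure D3:**
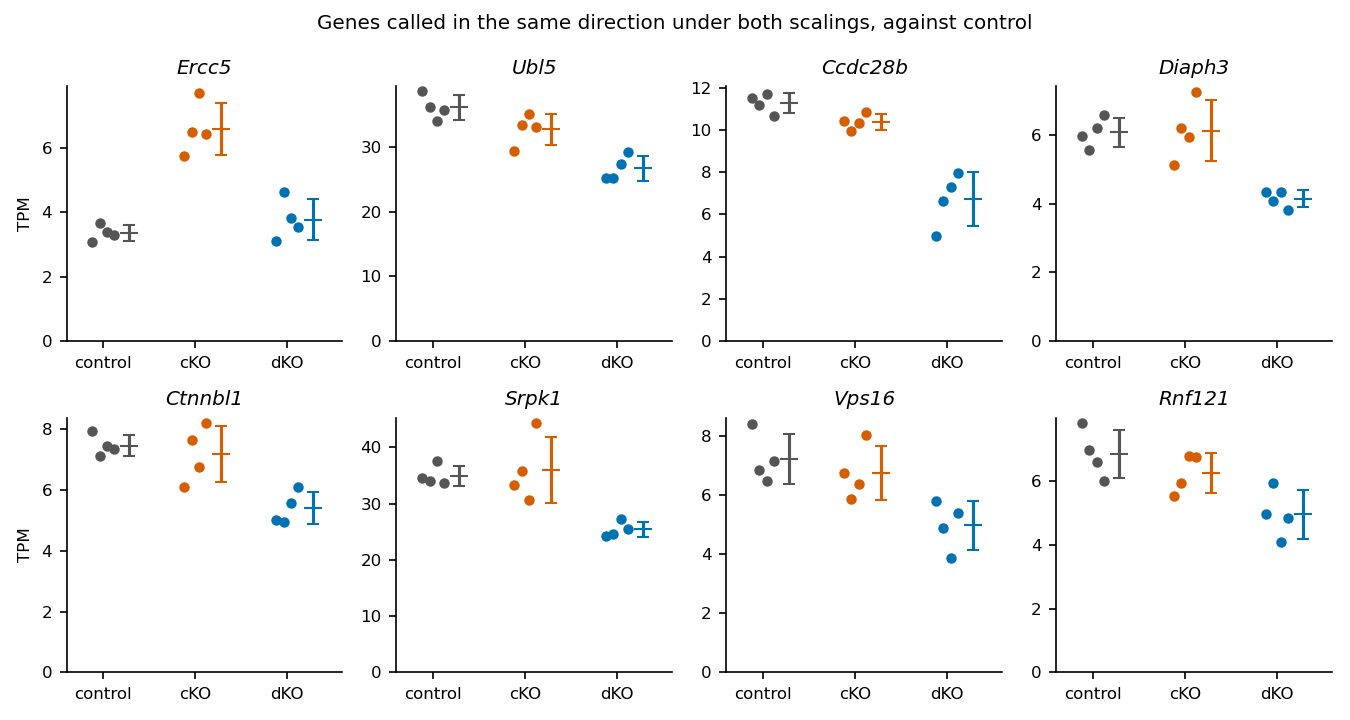
TPM of 8 genes by embryo, with the group mean and SD beside the points and each axis starting at 0. Ercc5 was called in cKO against control under both scalings and the other 7 genes in dKO against control, and the 4 dKO points of those 7 lie below all 4 control points.

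In the cKO, without Rnu11 alone, 1 gene of the 31, Ercc5, was called under both scalings, and 16 others were called under 1 of them. As deposited, 12 of the 31 (38.7%) were called higher in the cKO than in the control, close to the 34.3% of all genes tested, and 0 were called lower, beside 1.09% of all genes. No gene of the 31 was lower at an unadjusted limma p under 0.05, and 13 were higher, beside 5687 of all 11764 genes tested in either direction. After centring, 1 was called higher (3.23%, beside 3.72% of all genes) and 5 were called lower (16.1%, beside 2.96%). The median log2 difference of the 31 was 0.16 as deposited and -0.09 after centring, where that of all genes was 0.25 and 0.00. The number of genes with a negative difference went from 12 to 19. This comparison and that of the dKO share the 4 control embryos.

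Ercc5, the endonuclease XPG that cuts the damaged strand in nucleotide excision repair, was the gene of the 31 that rose in the cKO under both scalings. Its TPM was 3.07, 3.65, 3.40 and 3.30 in the controls, 5.75, 6.49, 7.70 and 6.45 in the cKO and 3.11, 4.62, 3.81 and 3.54 in the dKO. All 4 cKO embryos lay above the other 8, and the dKO overlapped the controls. The cKO mean was 197% of control, with a limma difference of 0.80 (SE 0.104, adjusted p = 0.000397) as deposited and 0.55 (SE 0.112, adjusted p = 0.0121) after centring, and the call was made in each of the 12 fits without 1 embryo under both scalings. The dKO stood below the cKO by a log2 difference of -0.68 (SE 0.104, adjusted p = 0.000933) as deposited, and the same contrast was not called after centring (-0.41, adjusted p = 0.0543). Its annotated intron with the donor GTATCCTTcaaggcggctcc, shown above, is 8786 bases long.

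The other 11 genes called higher in the cKO as deposited spanned several roles. The paired Golgi membrane proteins Tmem87a and Tmem87b stood at 13.98 ± 1.62 and 4.01 ± 0.446 TPM in the cKO, against 10.3 ± 1.10 and 2.55 ± 0.380 TPM in the controls (SD, n = 4). Cul4a, the scaffold of a family of ubiquitin ligases, stood at 6.62 ± 0.691 against 4.72 ± 0.403 TPM, and Stk11, the kinase Lkb1 that switches on AMP-activated kinase, at 10.5 ± 0.925 against 8.17 ± 1.01 TPM. For these 4 genes and for Exosc2, Derl2 and Xpo4 no cKO embryo overlapped a control. The log2 differences by limma were 0.50 for Tmem87b (adjusted p = 0.00504), 0.41 for Tmem87a (0.00860), 0.41 for Cul4a (0.00550) and 0.33 for Stk11 (0.0158).

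Exosc2, a cap subunit of the RNA-degrading exosome, rose by 0.38 (adjusted p = 0.00875) and Derl2, a channel component that returns misfolded proteins from the endoplasmic reticulum, by 0.40 (0.00920) as deposited, by limma. The nuclear exporter Xpo4 (0.35, adjusted p = 0.0330) rose too, as did the ciliary GTPase Rabl2 (0.48, 0.0341), the membrane protein Tapt1 (0.35, 0.0261), the CTLH ubiquitin ligase subunit Maea (0.35, 0.0490) and the chaperone adaptor Wdr92 (0.25, 0.0383), all by limma. In the last 4 of these the cKO and control embryos overlapped. After centring none of the 11 was called, and their differences from control were between -0.0029 for Wdr92 and 0.25 for Tmem87b. Without control embryo 4 or without cKO embryo 4 the deposited count of 12 was 7.

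After centring 5 genes were called lower in the cKO. Exosc1, the second exosome cap subunit of the list, stood at 8.79, 8.23, 8.20 and 8.10 TPM in the controls and 7.42, 7.65, 6.47 and 9.33 in the cKO as deposited. On that scale cKO embryo 4, the library with the highest protein-coding share, lay above all controls and the other 3 cKO embryos lay below them. The centred limma difference was -0.36 (SE 0.0641, adjusted p = 0.00583). Tmem107, a protein of the ciliary transition zone, had a centred difference of -0.40 (SE 0.104, adjusted p = 0.0387), with 2.20 ± 0.152 TPM in the controls and 1.87 ± 0.141 TPM in the cKO (SD, n = 4). Ubl5 (-0.39, adjusted p = 0.0174), Ctnnbl1 (-0.30, 0.0261) and Diaph3 (-0.25, 0.0450) were called lower by limma in the cKO and the dKO alike after centring. The centred cKO count of 6 was 3 without control embryo 2, control embryo 3, cKO embryo 1 or cKO embryo 2.

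**Figure D4:**
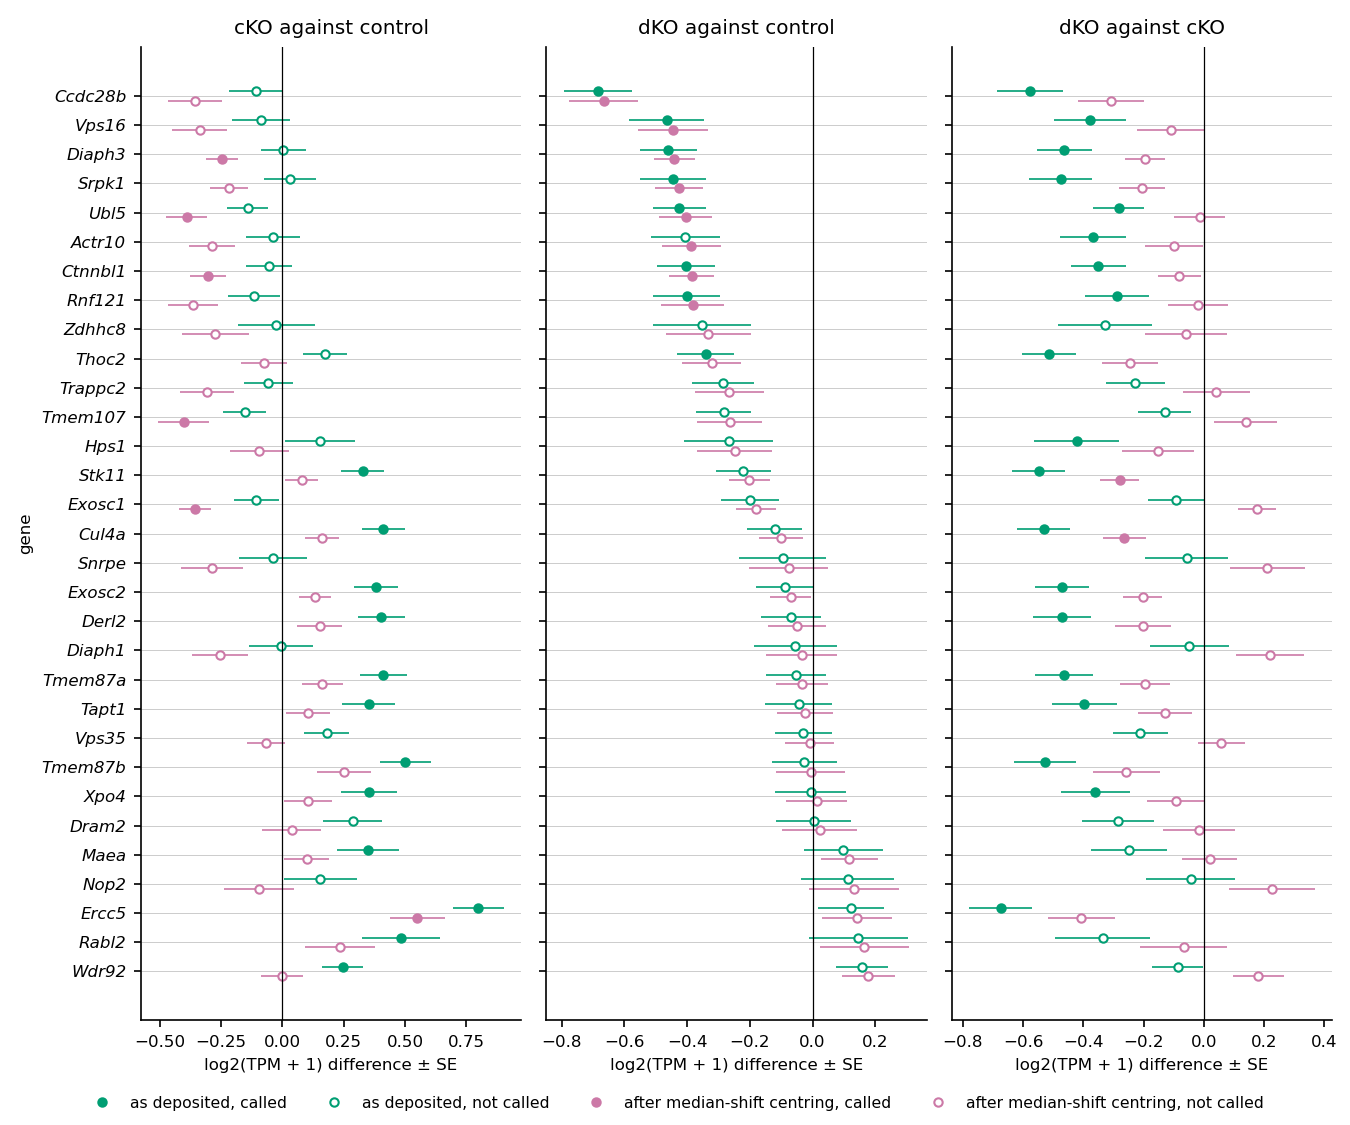
Log2(TPM + 1) difference ± SE of each of the 31 genes in the 3 comparisons, as deposited and after centring, with filled points for calls by limma and genes ordered by the deposited dKO difference from control. In dKO against control the filled points stand on the negative side under both scalings, and in cKO against control centring moves every gene to lower values and leaves Ercc5 as the filled point above 0.

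Between the mutants, all 31 genes had a lower mean in the dKO than in the cKO as deposited, a scale on which the median over all genes was -0.26. The difference was negative for 22 of the 31 after centring. As deposited, 19 of the 31 were called lower (61.3%, beside 38.8% of all genes tested) and 0 higher (beside 0.612%), with no gene of the 31 higher at an unadjusted limma p under 0.05. After centring 2 were called lower (6.45%, beside 3.83%) and 0 higher (beside 2.1%), with 1 higher and 11 lower at an unadjusted limma p under 0.05. At that level after centring stood 2757 of all 11764 genes tested, in either direction. The medians of the 31 were -0.36 and -0.09, beside -0.26 and 0.01 over all genes. The cKO embryos enter this comparison and that with the control, and the dKO embryos likewise, so the 3 sets of differences are not independent.

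The genes called between the mutants under both scalings were Stk11 and Cul4a. Stk11 stood at 9.62, 7.42, 7.55 and 8.11 TPM in the controls, 9.89, 10.1, 10.1 and 11.9 in the cKO and 6.62, 6.64, 7.22 and 6.89 in the dKO. The dKO embryos lay below all others and the cKO embryos above all controls. Cul4a stood at 4.96, 4.12, 4.94 and 4.85 TPM in the controls, 5.74, 6.60, 6.70 and 7.43 in the cKO and 3.97, 4, 4.31 and 4.76 in the dKO, with the cKO above all others and the dKO overlapping the controls. The limma differences of dKO from cKO were -0.55 (SE 0.0884, adjusted p = 0.00115) for Stk11 and -0.53 (SE 0.0874, adjusted p = 0.00126) for Cul4a as deposited. After centring they were -0.28 (SE 0.0659, adjusted p = 0.0301) and -0.26 (SE 0.0703, adjusted p = 0.0482), and without any 1 of the 12 embryos the centred count of 2 was 0 or 1.

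As deposited the 17 other genes called lower in the dKO than in the cKO were Ercc5, Ccdc28b, Tmem87b, Thoc2, Srpk1, Exosc2, Derl2, Tmem87a, Diaph3, Hps1, Tapt1, Vps16, Actr10, Xpo4, Ctnnbl1, Rnf121 and Ubl5. Their limma differences ran from -0.68 for Ercc5 to -0.28 for Ubl5. Hps1 was called in this contrast alone, at 2.17, 1.99, 1.39 and 2.25 TPM in the cKO and 1.20, 1.19, 1.29 and 1.08 in the dKO, with controls at 2.40, 1.06, 1.57 and 1.68. Its dKO embryos lay below all cKO embryos and inside the range of the controls.

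No comparison called Nop2, Snrpe, Trappc2, Vps35, Dram2, Zdhhc8 or Diaph1, under either scaling. Snrpe stood at 151 ± 16.9 TPM in the controls, 148 ± 23.3 in the cKO and 142 ± 22.9 in the dKO (SD, n = 4), so as deposited the most abundant gene of the list differed by less than its spread. After centring its cKO difference from control was -0.29 (SE 0.125, limma adjusted p = 0.206). The centred cKO differences of these 7 genes ran from -0.31 for Trappc2 (SE 0.110, limma adjusted p = 0.128) to 0.04 for Dram2. Vps35, the subunit of the retromer that binds endosomal cargo, stood at 30.9 ± 2.25, 35.2 ± 3.13 and 30.3 ± 2.59 TPM. Trappc2, a subunit of the TRAPP vesicle-tethering complex, was at 3.01 ± 0.530, 2.84 ± 0.309 and 2.27 ± 0.0934 TPM, and Dram2, a lysosomal membrane protein linked to autophagy, was at 3.30 ± 0.456, 4.25 ± 0.547 and 3.33 ± 0.673 TPM. The Dram2 values of all 3 genotypes overlapped. As deposited, the Trappc2 values of the cKO and the dKO each overlapped those of the controls, and the dKO embryos lay just under the cKO embryos. Nop2, a methyltransferase of ribosomal RNA, stood at 3.86 ± 0.417, 4.42 ± 0.562 and 4.35 ± 1.34 TPM, with dKO embryo 1 at 6.24 TPM. The palmitoyltransferase Zdhhc8 stood at 1.76 ± 0.482, 1.70 ± 0.323 and 1.17 ± 0.445 TPM, at levels close to the threshold for testing. Trappc2 and Snrpe share 22.6% and 20.8% of their 50-base stretches with Gm13080 and with Snrpert, and how the authors assigned reads that fit both is not given in the sources used here.

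Over all genes tested, 3.4% were called lower in the dKO than in the control as deposited and 4.69% after centring. By role, the 9 genes of RNA processing, export and ribosome assembly held 4 of the 8 falls in the dKO as deposited and 3 of 8 after centring. The 10 genes of membrane traffic, organelles and protein quality control held 2 under both scalings. The 7 genes of cytoskeleton, motors and cilium held 2 as deposited and 3 after centring. The last 5 genes were Stk11, Ercc5, Cul4a and Maea, of growth signalling, DNA repair and ubiquitin ligases, and the chaperone adaptor Wdr92, listed with them. These 5 held 0 under both, with an unadjusted limma count of 1 as deposited. All 5 of them were called higher in the cKO as deposited, and Ercc5 alone after centring. Over all genes tested, 34.3% were called higher in the cKO as deposited and 3.72% after centring. The median difference of these 5 from control was 0.35 in the cKO and 0.10 in the dKO as deposited, beside 0.25 and -0.01 over all genes, and after centring it was 0.10 in the cKO and 0.12 in the dKO.

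By sequence, the 12 genes with a matching donor had a median difference of dKO from control of -0.07 after centring, with 2 called lower, Ubl5 and Vps16. The other 19 genes had a median of -0.20, with 6 called lower. Among these 19, the 12 with donors read and none matching had -0.22, with 4 called lower. The 7 with no donor read had -0.04, with 2 called lower. Over all genes tested that median was 0.01, with 4.69% called lower. In the cKO the centred median was 0.03 for the 12 genes with a matching donor, with 1 called higher and 2 lower. For the other 19 it was -0.09, with 3 called lower. Those with donors read and none matching had -0.09, with 2 called lower, and those with no donor read had -0.26, with 1 called lower. Over all genes tested the cKO median was -0.0034, with 3.72% called higher and 2.96% lower. Ercc5 and Ubl5, both with an 8-letter donor, thus moved in opposite directions in the cKO after centring. Ccdc28b, with the lowest dKO percentage of control, is among the genes whose read donors did not match.

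The complexes in which the 31 genes work were looked at through 114 partner genes, of which 112 were found and 106 tested. In the dKO, 3 of the 106 were called as deposited, all of them lower, beside 3.4% of all genes called lower and 1.79% called higher. After centring 5 were lower and 1 higher, beside 4.69% and 3.74% of all genes. The medians of the partners were 0.02 and 0.03. The 3 called under both scalings included Diaph2, given above, and Srpk2, the paralog of Srpk1, at 13.4 ± 0.839 TPM in the controls and 10.01 ± 0.383 TPM in the dKO (limma, log2 difference -0.39, adjusted p = 0.0229 as deposited and 0.00706 after centring). The other was Exosc5, a ring subunit of the RNA exosome, at 2.46 ± 0.232, 1.77 ± 0.265 and 1.21 ± 0.152 TPM, which was lower in both mutants under both scalings. Its differences from control were -0.33 in the cKO and -0.65 in the dKO as deposited (limma, adjusted p = 0.0198 and 0.00229).

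In the cKO, 43 of the 106 partners were called higher and 1 lower as deposited, where 34.3% of all genes were called higher and 1.09% lower. The medians were 0.27 for the partners and 0.25 for all genes. After centring 2 partners were called higher and 2 lower, beside 3.72% and 2.96% of all genes. The 2 higher under both scalings were Trappc10, a TRAPP subunit (log2 difference 0.64 as deposited and 0.39 after centring), and Capzb, the capping protein that binds the dynactin filament (0.62 and 0.37). In dKO against cKO, 38 of the 106 were called lower and 0 higher as deposited, beside 38.8% and 0.612% of all genes. After centring 1 was lower and 1 higher, beside 3.83% and 2.1%. Srpk2 was the partner called lower there under both scalings (log2 difference -0.66 and -0.39). Of other genes of the minor-intron class, the 8 mitogen-activated kinase genes tested had a centred median difference of dKO from control of -0.25 with 1 called lower. The 5 E2F genes tested had -0.08 with 1 called lower, where 4.69% of all genes were called lower. In the cKO after centring, 2 of these kinase genes were called higher and 2 lower, and 1 E2F gene was called lower. The 2 voltage-gated sodium channel genes tested had a centred median of 0.30 in dKO against control. Both were called higher in the cKO under both scalings, with a median of 0.71 as deposited and 0.46 after centring. Over all genes, 34.3% were called higher in the cKO as deposited, and 3.72% higher and 2.96% lower after centring.

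Cell-type markers moved with the genotypes. The summed TPM of 10 proliferation genes was 473 to 549 in the controls, 412 to 586 in the cKO and 346 to 429 in the dKO, so the dKO lay below all controls, as for the genes that fell there. After centring, the mean log2(TPM + 1) of these 10 genes was 5.21 in the controls, 4.91 in the cKO and 4.92 in the dKO. The summed TPM of 8 markers of pallial tissue was 163 to 178 in the controls, 164 to 189 in the cKO and 105 to 157 in the dKO. These dKO sums again lay below all controls, but the mean log2(TPM + 1) of the 8 markers did not separate the groups. On that scale dKO embryo 2 stood at 3.77 as deposited and 3.84 after centring, above control embryo 2 at 3.44 and 3.60. The centred group means were 3.71 in the controls, 3.44 in the cKO and 3.47 in the dKO. Summed over 10 radial glia markers, TPM was 259 to 290.1, 306 to 361 and 282 to 285. Their order changed after centring, where the mean log2(TPM + 1) was 3.97 in the controls, 3.78 in the cKO and 3.93 in the dKO. On that scale the cKO embryos stood at 3.75 to 3.80, below all controls at 3.86 to 4.13. The summed TPM of 12 neuronal markers was 262 to 292 in the controls, 366 to 450 in the cKO and 189 to 284 in the dKO. For 8 microglial markers it was 10.2 to 12.6, 41.4 to 57.3 and 12.3 to 16.3, and for 6 endothelial markers 8.55 to 11.6, 17.6 to 23.1 and 10.9 to 18.2. Over 7 ventral telencephalon markers the sums were 1.73 to 2.43, 3.43 to 5.29 and 1.68 to 3.65, and over 5 erythroid genes 1857 to 2750.3, 2204 to 3042 and 1844 to 2473. After centring, the mean log2(TPM + 1) of the neuronal markers was 3.85 in the controls, 4.16 in the cKO and 3.71 in the dKO. For the microglial markers tested it was 1.35, 2.48 and 1.57, and for the endothelial markers tested 1.52, 1.89 and 1.89. All listed markers were above 0 in every library, except that 6 of the 7 ventral markers were so in some control and dKO libraries, and the part of these shifts in the differences of the 31 genes was not tested.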

How the data were processed

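Stranded total RNA libraries of 12 embryos were sequenced on a NextSeq500, per the labels' protocols. The submitters' processing notes name HISAT2 and mm10, and the quantification tool, the annotation and the handling of shared reads are not given in the sources used here. The authors deposited 1 table per embryo with 54735 gene symbols. The deposited values are TPM, as inferred from the values, since each table sums to 1000000 and holds fractions. Depth is unknown, so no counting interval was made, and the labels name no batch.

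The 11764 genes averaging at least 1 TPM over the 12 libraries were fitted with limma 3.58.1 in R 4.3.3 (lmFit, eBayes with trend) on log2(TPM + 1), with the 3 genotypes in 1 fit and Benjamini-Hochberg adjustment over all genes tested. A gene was called under an adjusted p of 0.05. Differences on this scale understate the change of genes at low TPM. Centring subtracted from each library the median, over the genes tested, of its log2 values minus the mean over libraries. The script was tested on simulated data. All 31 genes are named, and of the partner genes those called in the same direction under both scalings, of which no comparison had more than 3. The genes and lists were chosen with earlier results of these data known. Alternatives were protein-coding rescaling, a pseudocount of 0.1, no filter, a mean of at least 5 TPM, a replicate block, 2-group fits and leaving out each embryo. Block and leave-one-out fits with centring were added after seeing the data. Intron letters were read from annotated GENCODE transcripts that cover an intron's end. No 2 libraries held identical values, with correlations of 0.951 to 0.971 within a genotype.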

Additional observations from a re-analysis of the deposited data

Results flagged for a closer look

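In 5 of the 96 sets of 4 embryos examined (the 31 genes and their mean, in 3 genotypes), 1 embryo stood far from the other 3, where chance flags about 1 in 20 sets, or 4.8 of 96. Cul4a stood at 4.12 TPM in control embryo 2, under 4.85 to 4.96 in the other controls. Derl2 was at 8.52 TPM in cKO embryo 1, under 9.94 to 9.98 in the other cKO embryos. Stk11 was at 11.9 TPM in cKO embryo 4, above 9.89 to 10.1 in the others, and this library had the highest protein-coding share. In dKO embryo 2, Trappc2 was at 2.41 TPM, above 2.22 to 2.23 in the other dKO embryos, and Vps35 was at 34.2 TPM, above 28.9 to 29.1.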

How the results depend on the processing

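The fall of Ccdc28b, Diaph3 and Ubl5 in the dKO was called as deposited, after centring and after protein-coding rescaling, and so was the rise of Ercc5 in the cKO. For cKO against control the deposited count of 12 was 6 after centring, 6 after protein-coding rescaling, 7 with no filter, 7 with a mean of at least 5 TPM, where 20 of the 31 genes were tested, and 7 with a replicate block, and it ranged from 7 to 12 with 1 embryo left out. The centred count of 6 was 2 with the block and 3 to 7 with 1 embryo left out. The mean over the genes was -0.085 after centring and 0.031 after rescaling, against 0.16. The cKO difference of Diaph3 was 0.0041 as deposited, -0.25 after centring, -0.13 after rescaling and -0.069 to 0.074 with 1 embryo left out. That of Wdr92 was -0.0029 after centring, and that of Ctnnbl1 ranged from -0.11 to 0.012 with 1 embryo left out. For dKO against control the count of 8 was 3 with no filter, 3 with the block and 3 to 7 with 1 embryo left out. The centred count of 8 was 5 with the block and 5 to 8 with 1 embryo left out. The mean was -0.13 after rescaling, -0.21 with a pseudocount of 0.1 and -0.23 with a mean of at least 5 TPM, against -0.18. For dKO against cKO the count of 19 was 2 after centring and 6 after rescaling. The centred count of 2 was 0 with the block and 0 to 1 with 1 embryo left out. With the block 9 of the 31 were lower at an unadjusted limma p under 0.05, beside 2422 of all 11764 genes in either direction. The mean was -0.075 after centring and -0.16 after rescaling, against -0.34. Over all genes, cKO against control gave 4035 higher and 128 lower calls as deposited, 438 and 348 after centring, 1334 and 205 after rescaling and 2867 and 112 with the block. With dKO against control these were 210 and 400, 440 and 552, 640 and 440, and 147 and 262. With dKO against cKO they were 72 and 4564, 247 and 451, 165 and 974, and 53 and 3555. Deviations of same-numbered embryos correlated between -0.0954 and 0.0745, and 1 of 12 libraries correlated best with its own number. The values thus gave no sign of pairing by number, but they cannot show whether same-numbered embryos shared a litter or preparation. The cause of these changes was not tested.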
